A study of Homo sapiens with 4 samples.

Results

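The replication-dependent histone genes code for the core histones H2A, H2B, H3 and H4 and the linker histone H1 that are made in bulk when DNA is copied. Here they are the genes whose symbol in the deposited gene table begins with HIST1 to HIST4 followed by a histone type, with symbols ending in P and digits left out. The rule gave 54 of the 62069 genes in each library. Of these, 18 are pseudogenes by name or annotation, and 15 had no fragment in any library. HIST2H2BC had no annotated type and is not among the 18. By type, 8 of the 54 are H1, 15 are H2A, 18 are H2B, 8 are H3 and 5 are H4 genes. By cluster, 36 carry HIST1 symbols, 13 HIST2, 4 HIST3 and 1 HIST4. The table gives no symbol to 25518 of its genes, so histone genes among those were not reached.

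RNA was sequenced from KMS11, an established t(4;14) multiple myeloma line, in which the translocation drives high expression of the histone methyltransferase NSD2. Both groups were infected with shRNA lentivirus in polybrene at 10 µg/mL and collected after 96 h, of which 72 h followed the return to growth medium. The 2 libraries labelled NSD2 knockdown came from cells given an shRNA named M2, and the 2 control libraries are labelled only as control. Whether libraries 1 and 2 of a group are separate cultures is not labelled, so every p-value reflects the spread between these 4 libraries alone, which may be technical. All results are from 1 cell line and 1 shRNA label.

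Replication-dependent histone mRNAs are the main mRNAs of animal cells that lack a poly(A) tail. Their 3′ end is made by a cut just after a short stem-loop, which is bound by SLBP. In cells that leave the cycle or differentiate, some histone genes also give longer, polyadenylated mRNAs that read past the stem-loop. The TruSeq RNA kit used here selects poly(A) RNA, as background knowledge of that kit, so the levels below are of RNA that passed this selection and not of all histone mRNA.

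Totals were 48334736 and 55059566 fragments in the libraries labelled NSD2 knockdown 1 and 2, and 50417758 and 46728940 in control 1 and 2. CPM are fragments scaled to the library size after adjustment by TMM, edgeR's scaling between libraries, so they differ slightly from fragments over these totals. A count of 0 allows up to 3 fragments, or 0.0553 to 0.0636 CPM, and covers counting error only. NSD2 itself stood at 919 and 1156 CPM in the libraries labelled NSD2 knockdown, against 1121 and 1471 CPM in control. The groups overlapped. NSD2 had a log2 fold change of -0.32 with an adjusted p of 0.244 in edgeR's quasi-likelihood test with Benjamini-Hochberg adjustment. With a smooth offset for gene length it was -0.06 (adjusted p = 0.823, edgeR). The counts did not show the knockdown at the 0.05 threshold, so the group is called by its label throughout. Of 10 plasma cell markers, 9 were found and tested, with 2 lower in edgeR, and they summed to 8231 and 9073 CPM in the libraries labelled knockdown, against 8957 and 8986 CPM in control. The lists of mature B cell, T cell, myeloid cell, fibroblast and red cell markers summed to 26.8 to 39.9, 2.65 to 2.73, 1.63 to 1.77, 0.827 to 0.921 and 0.269 to 0.387 CPM in the libraries labelled knockdown. In control the same lists summed to 66.5 to 68.0, 3.82 to 4.45, 2.02 to 2.69, 0.811 to 1.23 and 0.317 to 0.403 CPM, and CD3D and LUM were at 0 in every library. Of the lists, 6 of 6, 4 of 5, 5 of 5, 5 of 5 and 5 of 5 genes were found. In bulk RNA, fewer cells of a type and less RNA per cell cannot be told apart, and the part of other cell types in the results below was not tested.

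The 3′ stem-loop is the element that sets these mRNAs apart, and it is shown here for the genes described first. In each site of 30 bases on GRCh38, capitals mark the 16-base stem-loop, found as a stem of 6 base pairs that opens with GG and closes with CC around a short loop. The sites were searched in GENCODE 29 transcripts, on the strand of the transcript. They lie at chr6:26124669-26124684 (+) for HIST1H2AC, chr6:26158587-26158602 (+) for HIST1H2BD, chr6:26123472-26123487 (-) for HIST1H2BC, chr6:26285131-26285146 (-) for HIST1H4H and chr1:149886188-149886203 (-) for HIST2H2BE.
HIST1H2AC: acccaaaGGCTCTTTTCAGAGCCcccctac
HIST1H2BD: tcccaaaGGCTCTTTTAAGAGCCacgcatg
HIST1H2BC: ccccaaaGGCTCTTTTAAGAGCCacccaga
HIST1H4H: aaccaaaGGCCCTTTTCAGGGCCgcccact
HIST2H2BE: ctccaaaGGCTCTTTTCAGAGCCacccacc
GENCODE 29 gives several transcripts to most of these genes, and they differ in what follows the stem-loop. In HIST1H2AC the transcripts that hold it run on for 1114 to 1128 bases, and 1 of its 3 transcripts lacks it. HIST1H2BD has 39 bases after it in 1 transcript, and its other, longer transcript of 789 bases lacks it. HIST1H2BC has 116 bases after it in 1 transcript and lacks it in the other. The 4 transcripts of HIST1H4H run on for 18 to 1655 bases, and the 1 transcript of HIST2H2BE for 1729. HIST1H2BD and HIST1H2BC have the same 16 bases there, and so do HIST1H2AC and HIST2H2BE.

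Histone H2A and H2B genes often sit head to head and share a promoter. The 250 bases before the start are shown for the 2 genes that rose and for HIST1H2AG, an H2A gene of the same cluster that did not pass the test, from RefSeq on GRCh38.p14. Capitals mark matches on either strand to CCAAT, to TATAAA and to the octamer ATTTGCAT. The windows are chr6:26123922-26124171 (+) for HIST1H2AC, chr6:26157871-26158120 (+) for HIST1H2BD and chr6:27132793-27133042 (+) for HIST1H2AG.
HIST1H2AC: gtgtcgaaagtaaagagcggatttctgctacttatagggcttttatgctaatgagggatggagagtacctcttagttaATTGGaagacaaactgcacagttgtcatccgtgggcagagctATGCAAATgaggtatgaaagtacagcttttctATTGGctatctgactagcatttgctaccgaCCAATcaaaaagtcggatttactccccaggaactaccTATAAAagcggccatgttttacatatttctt
HIST1H2BD: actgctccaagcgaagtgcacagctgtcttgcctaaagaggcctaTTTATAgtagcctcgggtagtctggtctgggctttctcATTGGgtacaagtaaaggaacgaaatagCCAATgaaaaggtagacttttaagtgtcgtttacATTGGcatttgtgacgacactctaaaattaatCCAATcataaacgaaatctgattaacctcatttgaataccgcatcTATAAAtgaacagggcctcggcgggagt
HIST1H2AG: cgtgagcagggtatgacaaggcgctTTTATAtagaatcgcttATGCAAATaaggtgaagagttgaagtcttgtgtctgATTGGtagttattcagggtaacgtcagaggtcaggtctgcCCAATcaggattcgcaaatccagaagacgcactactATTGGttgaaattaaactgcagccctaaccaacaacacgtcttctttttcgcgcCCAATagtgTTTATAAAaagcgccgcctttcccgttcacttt
The HIST1H2AC window and that of HIST1H2BC, read on the other strand, cover nearly the same bases. All 3 printed windows hold CCAAT and TATAAA, and the octamer is in those of HIST1H2AC and HIST1H2AG but not of HIST1H2BD. Of the 54 genes, 32 matched a RefSeq promoter. CCAAT was in 29 of these 32, against 33% of all promoters in the table, and TATAAA in 22 of 32, against 11.1%. The octamer was in 13 of 32, against 1.66% of all promoters, and these were 6 of 8 H2A, 6 of 10 H2B, 1 of 5 H3, 0 of 6 H1 and 0 of 3 H4 promoters. The 3 H4 windows also held no CCAAT. The 1 H3 window with the octamer, that of HIST1H3D, has the same position and bases as that of HIST1H2AD, an H2A gene. Head-to-head pairs such as HIST1H2AC and HIST1H2BC share most of their windows, so the 32 are not 32 separate promoters. These matches describe letters in the windows and say nothing of which factor was bound.

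Of the 54 histone genes, 19 had enough fragments to be tested. Of these, 2 rose in the libraries labelled NSD2 knockdown, the H2A gene HIST1H2AC and the H2B gene HIST1H2BD, and 0 fell. Over all 17172 genes tested, 1.74% rose and 4.19% fell, 5.93% in all. The log2 fold change was above 0 in 15 of the 19, against 49.7% of all genes, and its median was 0.42, against 0.00 over all genes. At an unadjusted p under 0.05 there were 7 of the 19, all of them higher and 0 lower, against a background of 22.5%. The groups did not overlap in 11 of the 19, against 53.2% of all genes, and in 9 of those the libraries labelled knockdown were higher, against 27% of all genes. Since 35 members were left out by the filter on low counts, these shares describe the genes with enough fragments and not the family.

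**Figure D1:**
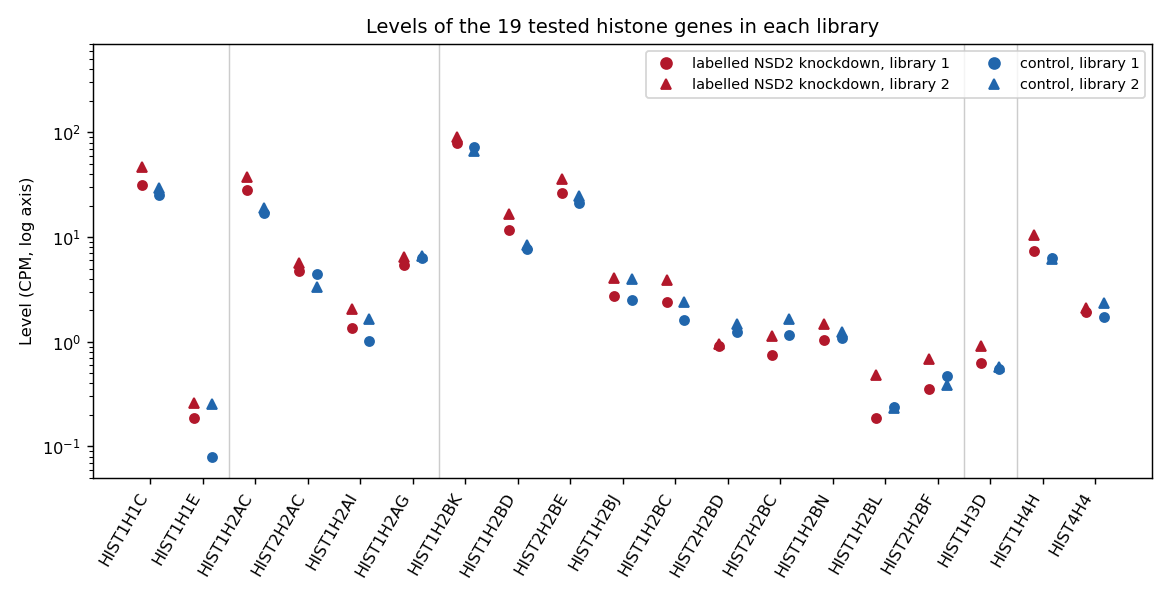
Level of each of the 19 tested histone genes in each library, in CPM on a log axis, with genes ordered by histone type (H1, H2A, H2B, H3, H4, separated by grey lines) and by level per length within a type. Red symbols are the libraries labelled NSD2 knockdown and blue symbols control, circles are library 1 and triangles library 2. HIST1H2BK is highest in CPM in every library, and for HIST1H2AC and HIST1H2BD both red symbols lie above both blue ones.

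HIST1H2AC (ENSG00000180573, GRCh37 chr6:26124373-26139336, + strand) codes for an H2A protein. It had 1357 and 2043 fragments, or 28.1 and 37.6 CPM, in the libraries labelled NSD2 knockdown, against 856 and 899 fragments, or 16.9 and 19.1 CPM, in control. The lower library labelled knockdown stood well above the higher control library. Its mean was 32.9 ± 6.77 CPM in the libraries labelled knockdown and 18.0 ± 1.51 CPM in control (SD, n = 2 each), and it rose 1.83-fold with an adjusted p of 0.00887 in edgeR. The log2 fold change was 0.87, with an SE of 0.146 and a 95% interval of 0.54 to 1.20. The call held in each alternative that was run, and leaving out single libraries gave log2 fold changes of 0.63 to 1.07. Only 0.4% of the 50-base windows of its transcripts occur in transcripts of another gene.

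HIST1H2BD (ENSG00000158373, GRCh37 chr6:26158349-26171577, + strand) codes for an H2B protein. It had 570 and 904 fragments, or 11.8 and 16.7 CPM, in the libraries labelled NSD2 knockdown, against 392 and 396 fragments, or 7.76 and 8.40 CPM, in control. The groups did not overlap, and library 2 labelled knockdown was the highest by a wide margin. Its mean was 14.2 ± 3.44 CPM in the libraries labelled knockdown and 8.08 ± 0.455 CPM in control (SD, n = 2 each), and it rose 1.76-fold with an adjusted p of 0.0232 in edgeR. The log2 fold change was 0.82, with an SE of 0.172 and a 95% interval of 0.43 to 1.20. Without library 2 labelled knockdown the log2 fold change was 0.54 and the adjusted p 0.154 in edgeR, so the call rests on that library.

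Linker histones bind DNA between nucleosomes. Of the 8 H1 genes reached by the rule, HIST1H1C (GRCh37 chr6:26055968-26056699, - strand) was the one with a sizeable level. Outside the rule, the H1 gene H1FX had 180 and 237 CPM in the libraries labelled NSD2 knockdown, against 234 and 194 CPM in control. HIST1H1C had 31.1 and 46.3 CPM in the libraries labelled NSD2 knockdown, against 25.2 and 29.3 CPM in control. The groups did not overlap, but the 2 libraries labelled knockdown differed from each other more than the lower one differed from control. The log2 fold change of 0.51 (SE 0.169, 95% interval 0.13 to 0.89) had an adjusted p of 0.114 in edgeR. It was 0.19 (adjusted p = 0.767) without library 2 labelled knockdown and 0.77 (adjusted p = 6.93e-05) without library 1, and 0.61 (adjusted p = 0.0144) without control library 2, in edgeR. HIST1H1E, the other of these H1 genes that was tested, had 9 and 14 fragments in the libraries labelled knockdown, against 4 and 12 in control. HIST1H1A was at 0 in every library, and HIST1H1B, HIST1H1D and the testis gene HIST1H1T had levels of at most 0.198 CPM. The pseudogene HIST1H1PS1 had 0.186 and 0.350 CPM in the libraries labelled knockdown, against 0.119 and 0.0848 CPM in control. It was not tested, and 83.2% of the windows of its GENCODE 29 transcript are shared with other genes. That transcript has 574 bases, against 206 bases of counted exon.

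The 15 H2A genes summed to 39.9 and 52.1 CPM in the libraries labelled NSD2 knockdown, against 28.9 and 30.9 CPM in control. HIST1H2AC made up most of this sum, and of the 4 H2A genes tested it alone passed. HIST2H2AC had 4.72 and 5.60 CPM in the libraries labelled knockdown, against 4.41 and 3.31 CPM in control (log2 fold change 0.42, adjusted p = 0.241, edgeR). Its lower library labelled knockdown and its higher control library lay close together. HIST1H2AI had 1.34 and 2.06 CPM in the libraries labelled knockdown, against 1.01 and 1.63 CPM in control, with overlapping groups and 62.3% of its windows shared with other genes. HIST1H2AG had 5.46 and 6.41 CPM in the libraries labelled knockdown, against 6.31 and 6.66 CPM in control. Its groups overlapped, and the log2 fold change of -0.13 (95% interval -0.48 to 0.23) had an adjusted p of 0.688 in edgeR.

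H2B had the highest sum of the types among the genes reached, with 10 of its 18 genes tested. HIST1H2BK (GRCh37 chr6:27106073-27114619, - strand) alone held 37.0% of the summed CPM of all 54 genes. It had 79.1 and 91.0 CPM in the libraries labelled NSD2 knockdown, against 71.8 and 65.8 CPM in control, and the groups did not overlap. The log2 fold change of 0.31 (SE 0.104, 95% interval 0.07 to 0.54) had an adjusted p of 0.119 in edgeR. It was 0.20 (adjusted p = 0.707) without library 2 labelled knockdown and 0.37 (adjusted p = 0.0361) without control library 1, in edgeR. Since 74.1% of its 50-base windows occur in transcripts of other genes, its fragments are uncertain in origin. HIST2H2BE, of the HIST2 cluster on chromosome 1, had 26.1 and 36.1 CPM in the libraries labelled knockdown, against 21.1 and 24.6 CPM in control (log2 fold change 0.44, adjusted p = 0.126, edgeR). Its log2 fold change was 0.19 (adjusted p = 0.780) without library 2 labelled knockdown, 0.66 (adjusted p = 0.0018) without library 1 and 0.55 (adjusted p = 0.0223) without control library 2, in edgeR. HIST1H2BC had 2.38 and 3.91 CPM in the libraries labelled knockdown, against 1.60 and 2.38 CPM in control (log2 fold change 0.67, adjusted p = 0.202, edgeR). For HIST1H2BC the value was 0.25 (adjusted p = 0.868) without library 2 labelled knockdown, 0.98 (adjusted p = 0.0136) without library 1 and 0.97 (adjusted p = 0.0414) without control library 2, in edgeR. In HIST1H2BC library 1 labelled knockdown and library 2 of control were nearly equal.

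Lower values that did not pass the test came from HIST2H2BD, annotated as a pseudogene, and HIST2H2BC. HIST2H2BC matched no GENCODE transcript and had no annotated type, so whether it is a pseudogene was not settled. HIST2H2BD had 0.910 and 0.958 CPM in the libraries labelled NSD2 knockdown, against 1.25 and 1.49 CPM in control (log2 fold change -0.54, adjusted p = 0.228, edgeR), with 71.0% of its windows shared. HIST2H2BC had 0.745 and 1.12 CPM in the libraries labelled knockdown, against 1.15 and 1.65 CPM in control (log2 fold change -0.57, adjusted p = 0.291, edgeR). In both, every library labelled knockdown was below every control library, by little in HIST2H2BC. The other H2B genes tested, HIST1H2BJ, HIST1H2BL, HIST1H2BN and HIST2H2BF, had overlapping groups and log2 fold changes between 0.06 and 0.52.

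The H3 genes reached by the rule were near the lowest levels that could be counted. The 8 genes summed to 0.993 and 1.24 CPM in the libraries labelled NSD2 knockdown, against 0.989 and 1.04 CPM in control. HIST1H3D was the one H3 gene tested, at 0.620 and 0.903 CPM in the libraries labelled knockdown, against 0.554 and 0.573 CPM in control (log2 fold change 0.44, adjusted p = 0.443, edgeR). All of its 50-base windows occur in transcripts of another gene, and its span overlaps HIST1H2AD. HIST2H3A and HIST2H3C, whose windows are likewise all shared, were at 0 in every library, and whether multi-mapped reads were lost there was not tested. HIST2H3D had 0.269 and 0.111 CPM in the libraries labelled knockdown, against 0.158 and 0.127 CPM in control. The pseudogene HIST1H3PS1 had 0.0207 and 0.0921 CPM in the libraries labelled knockdown, against 0.0989 and 0.170 CPM in control.

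Among the 5 H4 genes, HIST1H4H had 7.38 and 10.5 CPM in the libraries labelled NSD2 knockdown, against 6.27 and 6.11 CPM in control. Both libraries labelled knockdown were above both controls, and the log2 fold change of 0.53 (SE 0.182, 95% interval 0.13 to 0.94) had an adjusted p of 0.122 in edgeR. The value was 0.25 (adjusted p = 0.793) without library 2 labelled knockdown and 0.77 (adjusted p = 0.0113) without library 1, in edgeR. HIST4H4, the lone HIST4 gene, lies on chromosome 12. It had 1.92 and 2.12 CPM in the libraries labelled knockdown, against 1.72 and 2.35 CPM in control. Its control libraries enclosed the others, and the log2 fold change was -0.01 (95% interval -0.52 to 0.50, adjusted p = 0.990, edgeR). HIST1H4C had 8 and 5 fragments in the libraries labelled knockdown, against 2 and 1 in control, and HIST1H4J and the pseudogene HIST1H4PS1 stood at 0.0396 to 0.0848 CPM over the 4 libraries.

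**Figure D2:**
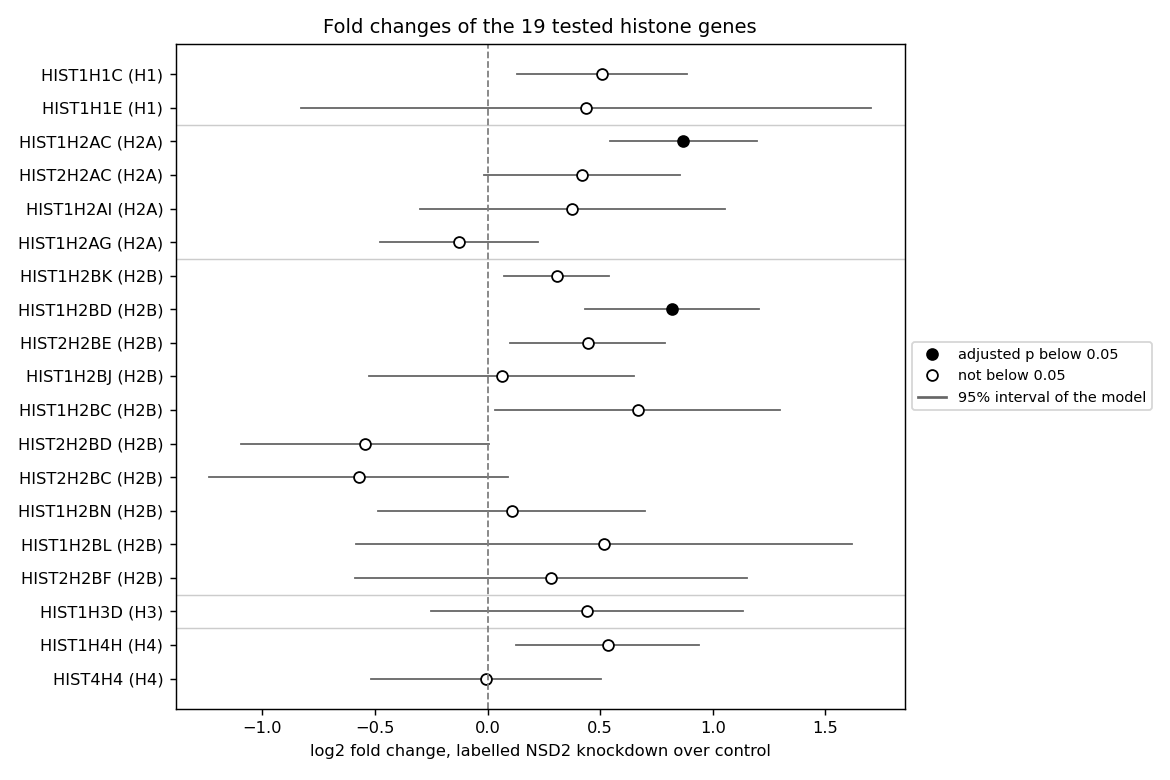
Log2 fold change of the 19 tested histone genes, libraries labelled NSD2 knockdown over control, with the model's 95% interval as bars and histone types separated by grey lines. The 2 filled points, HIST1H2AC at 0.87 and HIST1H2BD at 0.82, passed an adjusted p of 0.05, and 15 of the 19 points lie to the right of 0.

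Summed over all 54 genes, the level was 208 and 270 CPM in the libraries labelled NSD2 knockdown, against 173 and 181 CPM in control. The mean was 239 ± 44.0 CPM in the libraries labelled knockdown and 177 ± 5.58 CPM in control (SD, n = 2 each), a log2 ratio of 0.43. Without library 2 labelled knockdown it was 0.23. Without HIST1H2BK the sums were 128 and 179 CPM in the libraries labelled knockdown, against 101 and 115 CPM in control. No p is given for these sums because 2 libraries against 2 cannot reach 0.05 in an exact permutation test. H2A had the highest ratio of the types at 1.54, followed by H1 at 1.42, H4 at 1.34, H2B at 1.29 and H3 at 1.10, with no test between types.

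By cluster, the 36 genes with HIST1 symbols summed to 172 and 223 CPM in the libraries labelled NSD2 knockdown, against 142 and 147 CPM in control. They lie on chromosome 6, except the pseudogenes HIST1H2APS6 and HIST1H2BPS3 on chromosome 13, which had no fragment in any library. The 13 HIST2 genes on chromosome 1 summed to 33.4 and 44.8 CPM in the libraries labelled knockdown, against 28.7 and 31.7 CPM in control. Library 1 labelled knockdown was above both controls in both clusters. Both genes that rose belong to HIST1, with 13 of its genes tested, and 0 of the 5 HIST2 genes tested passed. The 4 HIST3 genes had at most 2 fragments in any library, and none was tested. The 18 pseudogenes summed to 1.28 and 1.71 CPM in the libraries labelled knockdown, against 1.64 and 1.97 CPM in control.

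Some of these genes stand head to head, with starts within 1000 bp and transcription running apart. There were 8 such pairs, of which 4 had both genes tested. HIST1H2BC and HIST1H2AC, 218 bp apart, had log2 fold changes of 0.67 and 0.87. HIST2H2BE and HIST2H2AC, 292 bp apart, had 0.44 and 0.42, and HIST1H2BL and HIST1H2AI, 189 bp apart, had 0.52 and 0.38. HIST1H2BJ and HIST1H2AG, 290 bp apart, had 0.06 and -0.13. Of these 8 genes HIST1H2AC alone passed the test, and the values within pairs were not compared with those of other genes.

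The order of levels was compared per length of exon, as CPM per kb. HIST1H2BK led with 104 in the libraries labelled NSD2 knockdown and 83.9 in control, followed by HIST1H1C with 52.9 in the libraries labelled knockdown and 37.2 in control. HIST1H2AC came next with 19.8 in the libraries labelled knockdown and 10.8 in control. HIST1H2BD had 15.8 CPM per kb in the libraries labelled knockdown and 8.99 in control, and HIST2H2BE had 14.0 in the libraries labelled knockdown and 10.3 in control. In control, HIST1H2AC, HIST2H2BE and HIST1H2BD lay close together, and in the libraries labelled knockdown HIST1H2AC stood above the other 2 by mean, with no test between genes. Replication-independent variants come from polyadenylated mRNAs through the whole cell cycle. Of 17 such genes found, some of high level are given as a scale. H2AFZ, the gene of H2A.Z, had 322 CPM per kb in the libraries labelled knockdown and 315 in control, and H3F3A, a gene of H3.3, had 77.4 in the libraries labelled knockdown and 83.6 in control. Other genes of that list were low. H3F3C had 0.256 CPM per kb in the libraries labelled knockdown and 0.242 in control, and H1FOO and H2BFM were at 0 in every library. HIST1H3D had 0.881 CPM per kb in the libraries labelled knockdown and 0.651 in control.

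Annotated 3′ ends differed widely among the histone genes. A stem-loop was found in the transcripts of 20 of the 53 genes with a GENCODE 29 transcript, against 1.56% of all coding genes. The 1.56% covers protein-coding transcripts alone and includes histone genes, while the 53 include pseudogenes, so the sets are unlike. Of these 20, 13 had over 100 bases after the stem-loop in the transcript that runs on furthest, which set the class. HIST1H4H, HIST1H2BN and HIST2H2BD, placed among these 13, also have transcripts with 18, 5 and 23 bases after the stem-loop. Of those 13, 9 were tested, with a median level of 1.61 CPM per kb over the 13. Of the 7 with up to 100 bases after the stem-loop, 3 were tested, with a median of 0.148 CPM per kb. In the other 33 no stem-loop was found, and 6 of these were tested, HIST1H2BK and HIST1H1C among them. Many of their annotated transcripts end at the coding sequence, so no match says nothing of the gene itself. Levels were counted over the exons of the deposited GRCh37 annotation, which can leave out these 3′ ends. HIST2H2BD, for example, has 2976 bases after the stem-loop in GENCODE 29 but 493 bases of counted exon. A level by class is therefore not the level of RNA with that 3′ end. Of the 2 genes that rose, HIST1H2AC falls among the 13, and HIST1H2BD among the 7 by the 1 transcript of it that holds the stem-loop.

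**Figure D3:**
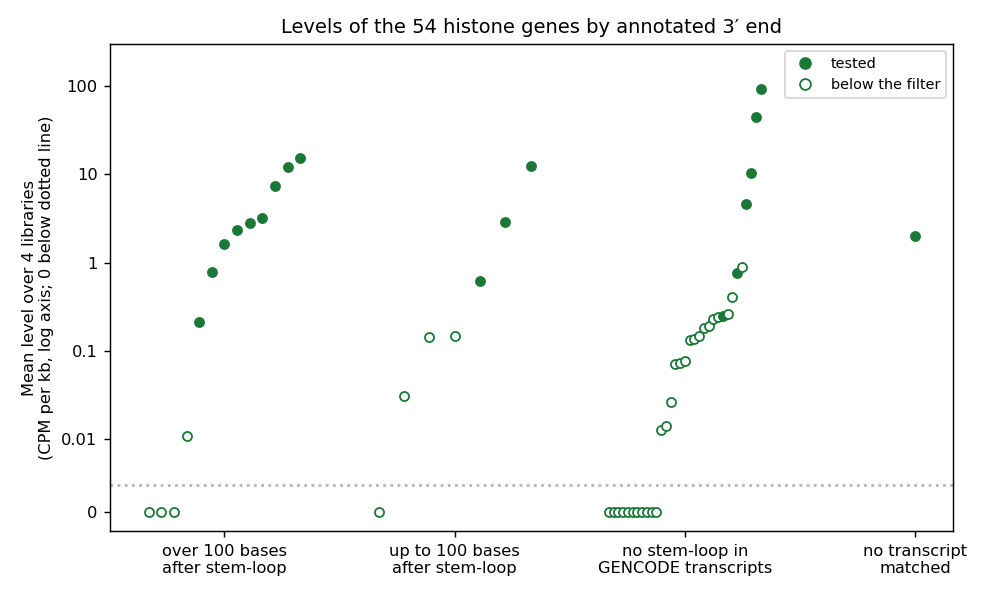
Mean level of the 54 histone genes over the 4 libraries, in CPM per kb of exon on a log axis with 0 drawn below the dotted line, grouped by the annotated 3′ end in GENCODE 29, taking the transcript that runs on furthest after the stem-loop. Filled circles are the 19 tested genes and open circles those below the filter; 9 of the 13 genes with over 100 bases after the stem-loop are filled, 3 of 7 with up to 100 bases, 6 of 33 with no stem-loop found and the 1 gene with no transcript.

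The library number moved with the histone genes as well. Library 2 labelled NSD2 knockdown was the highest of the 4 in 15 of the 19 tested genes, against 28.7% of all genes. Number 2 was above number 1 in 19 of 19 among the libraries labelled knockdown, against 50.2% of all genes, and in 14 of 19 among the control libraries, against 49.5%. In a model with both group and number, 4 of the 19 were higher in number 2 at an adjusted p under 0.05 in edgeR, against 1.98% of all genes, and 0 were lower. These were HIST1H1C (log2 fold change 0.40), HIST1H2BJ (0.61), HIST2H2BE (0.35) and HIST1H2BC (0.65). Neither HIST1H2AC (0.30, adjusted p = 0.0833) nor HIST1H2BD (0.32, adjusted p = 0.161) passed in edgeR. What the number stands for is not given in the labels. In that model with both group and number, 7 of the 19 were higher in the libraries labelled knockdown at an adjusted p under 0.05 in edgeR. Over all 17172 genes, 1327 were higher there. Beyond that model and leaving libraries out, the part of the number in the group difference was not tested.

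**Figure D4:**
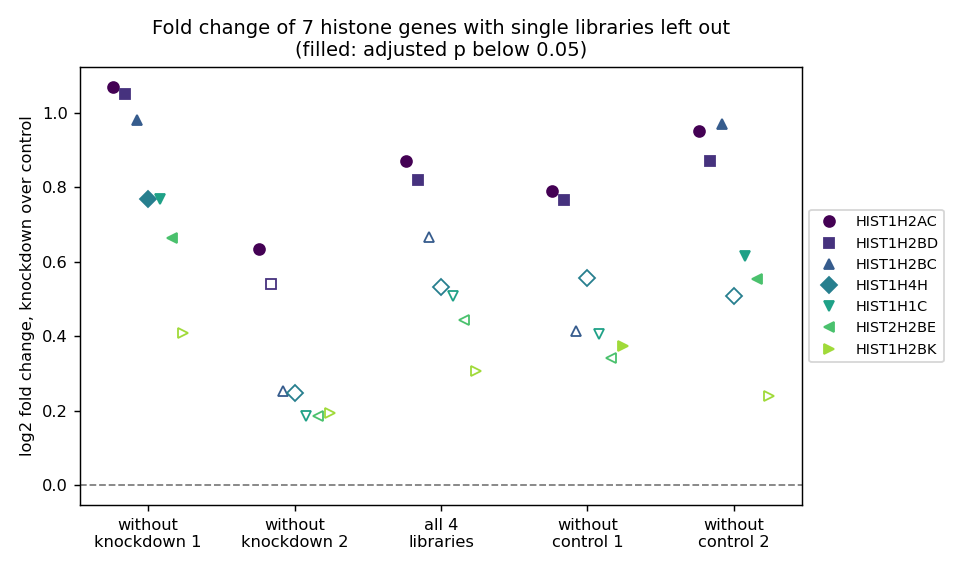
Log2 fold change, libraries labelled NSD2 knockdown over control, of 7 histone genes with all 4 libraries and with each library left out in turn; filled symbols have an adjusted p below 0.05 in edgeR. The 7 genes are those with an unadjusted p under 0.05 in edgeR with all 4 libraries, where all of them were higher. Every value lies above 0, which this choice made likely, since the fits share most of their libraries.

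The genes of the surrounding pathways were tested in 8 lists, of which 164 distinct genes were tested, 1 was higher and 3 were lower in edgeR. Over all genes 1.74% were higher and 4.19% lower, so these lists held no more calls in proportion than all genes did. None of 24 genes of histone mRNA 3′ processing passed in edgeR, with 3 higher and 1 lower at an unadjusted p under 0.05 and a median log2 fold change of 0.13. DESeq2 called 1 of them lower and limma-voom called 0. SLBP, which binds the stem-loop, came nearest among the main factors, with 87.5 and 101 CPM in the libraries labelled NSD2 knockdown, against 117 and 155 CPM in control. Both libraries labelled knockdown were below both controls, with a log2 fold change of -0.53 and an SE of 0.137. The adjusted p of 0.0522 in edgeR lay just above the threshold, and it ran between 3.05e-05 and 0.0998 over the alternatives without the block. DESeq2 called SLBP lower (adjusted p = 0.00671), and so did edgeR without control library 1, without library 2 labelled knockdown or without a filter. SLBP lies at GRCh37 chr4:1694527-1714282, on the same chromosome as NSD2 at chr4:1873151-1983934. LSM11, a subunit of the U7 particle that cuts histone pre-mRNA, had a log2 fold change of 0.10 (adjusted p = 0.708, edgeR).

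Of 23 genes of histone transcription and the histone locus body, 1 rose and 1 fell in edgeR, against 1.74% and 4.19% of all genes. At an unadjusted p under 0.05 there were 1 higher and 3 lower, and DESeq2 called 1 higher and 2 lower. TBPL1, a relative of the TATA-binding protein, had 23.2 and 23.2 CPM in the libraries labelled NSD2 knockdown, against 17.3 and 15.1 CPM in control (log2 fold change 0.52, adjusted p = 0.0289, edgeR). CCNE2, a cyclin E that activates CDK2 at S phase entry, had 37.5 and 34.8 CPM in the libraries labelled knockdown, against 46.2 and 52.7 CPM in control (log2 fold change -0.45, adjusted p = 0.0333, edgeR), and its span overlaps INTS8. Neither gene's groups overlapped. NPAT, the coactivator that holds the locus body together, had 18.3 and 18.6 CPM in the libraries labelled knockdown, against 18.5 and 22.8 CPM in control (log2 fold change -0.16, adjusted p = 0.493, edgeR), and overlaps ATM. CASP8AP2, also called FLASH, had a log2 fold change of -0.20 (adjusted p = 0.269, edgeR).

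Of 20 genes of histone mRNA decay, 0 rose and 1 fell in edgeR, as in DESeq2 and limma-voom, with 1 higher and 2 lower at an unadjusted p under 0.05. XRN1, the cytoplasmic 5′ to 3′ exonuclease, had 50.7 and 45.6 CPM in the libraries labelled NSD2 knockdown, against 65.5 and 68.2 CPM in control (log2 fold change -0.48, adjusted p = 0.0205, edgeR). It was lower in both libraries labelled knockdown, and lost the call with a smooth length offset (adjusted p = 0.0651, edgeR). Without library 2 labelled knockdown, XRN1 had a log2 fold change of -0.41 (adjusted p = 0.139, edgeR), TBPL1 one of 0.52 (adjusted p = 0.0754, edgeR) and CCNE2 one of -0.41 (adjusted p = 0.154, edgeR). Without control library 2, TBPL1 had 0.42 (adjusted p = 0.0618, edgeR) and CCNE2 -0.36 (adjusted p = 0.0579, edgeR). These calls were lost while each value kept its sign and stayed within 1.5 times of that with all 4 libraries. None of the 28 histone chaperone genes passed in edgeR, DESeq2 or limma-voom, with 2 higher at an unadjusted p under 0.05 and a median log2 fold change of 0.02. None of the 10 replication-independent histone genes tested passed in these 3 tools, with 1 higher at an unadjusted p under 0.05 and a median of -0.01.

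Among 43 S phase genes, 0 rose and 2 fell in edgeR, CCNE2 and RRM2, and the median log2 fold change was -0.09. The log2 fold change was above 0 in 11 of the 43, against 49.7% of all genes. At an unadjusted p under 0.05 there were 0 higher and 8 lower of the 43 in edgeR. The 22.5% of all genes at that threshold pools both directions, so it is no background for lower genes alone. DESeq2 called 0 higher and 3 lower. RRM2, a subunit of ribonucleotide reductase that makes deoxynucleotides, had 517 and 419 CPM in the libraries labelled NSD2 knockdown, against 855 and 691 CPM in control (log2 fold change -0.73, adjusted p = 0.0137, edgeR). The groups lay far apart. The list summed to 6151 and 5237 CPM in the libraries labelled knockdown, against 6608 and 5912 CPM in control, so number 2 was below number 1 in both groups. None of 20 mitosis genes passed in edgeR, with 1 higher and 1 lower at an unadjusted p under 0.05 and a median log2 fold change of 0.03, and DESeq2 called 1 lower.

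Other RNAs that lack a poly(A) tail were also measured, since incomplete poly(A) selection would leave them in. Of 17 such genes found, 2 had enough fragments to be tested and 0 passed in edgeR, in DESeq2 or at an unadjusted p under 0.05. They summed to 1.47 and 1.42 CPM in the libraries labelled NSD2 knockdown, against 1.17 and 1.44 CPM in control, so the groups overlapped. SNORD3A, RNU4ATAC and RNU5A-1 were at 0 in every library. The part of carried-over RNA without a tail in the histone levels was not tested further.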

How the data were processed

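RNA was measured in 4 libraries of KMS11 cells. The authors deposited whole fragment counts by gene. Among the tools named in the submitters' processing notes were Trim Galore 0.3.7, STAR 2.5.3 and featureCounts of Subread 1.4.6, and the build was GRCh37. Counting ignored strand and used files named for duplicate removal, per the file headers. A table made with DESeq2 by the authors was also used: its symbols chose the members, and its deposited base mean (a signal), log2 fold change and p-value appear in the closing values. Its 4 count columns were not used.

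Genes were kept by edgeR's filterByExpr, scaled by TMM and tested by edgeR's quasi-likelihood test on group alone, with Benjamini-Hochberg adjustment over 17172 genes and a threshold of 0.05. Fold changes come from the model, and CPM from counts scaled to the TMM-adjusted library size. Windows of 50 bases of each histone gene's GENCODE 29 transcripts were compared with transcripts of other genes. Those transcripts can differ in length from the counted exons, so a share of windows is not a share of fragments. GENCODE 29 and RefSeq are on GRCh38, so their coordinates were not mixed with those of the files. The rule for named genes took NSD2, the histone genes past the threshold, the 12 of smallest adjusted p, the 3 highest per kb of each type, SLBP, NPAT, LSM11, CASP8AP2 and, in each related list, up to 3 genes past the threshold in each direction. Other members named were added after their values were seen. The members and lists were chosen with earlier results of these data known. Alternatives changed the scaling, the filter, the tool, the length and GC correction, the block and the libraries included. The test was checked on simulated data.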

Additional observations from a re-analysis of the deposited data

How the results depend on the processing

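HIST1H2AC and HIST1H2BD were the 2 histone genes called under RLE, upper-quartile and library-size scaling, a filter of 1 CPM, DESeq2, limma-voom, robust estimation, and length or length and GC correction. Without a filter, 6 histone genes were called higher, and over all genes 658 were higher and 1490 lower; groups did not overlap in 18 histone genes, 2 related genes were higher and 8 lower, and NSD2 had -0.32 (adjusted p = 0.0173, edgeR). DESeq2 called 6 related genes lower, and length and GC correction 2 higher. NSD2 was -0.06 with length and -0.05 with length and GC correction (adjusted p = 0.823 and 0.858, edgeR). Leaving out single libraries gave 173 to 682 genes higher and 649 to 1342 lower, 1 to 6 histone genes higher, 0 to 4 related genes higher and 2 to 10 lower. The summed log2 ratio then ran from 0.23 to 0.62 and NSD2 from -0.50 to -0.12, with an adjusted p of 0.0196 without control 1 and 0.0268 without knockdown 2 (edgeR). HIST1H1E ran from -0.18 without control 1 to 1.47 without control 2, and HIST4H4 was 0.011 under limma-voom and ran from -0.21 without control 1 to 0.23 without control 2, with 0.06 without knockdown 1; none of these passed. The causes were not tested.

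The libraries share numbers that no label says mark a pair, and deviations of same-numbered libraries from their group means correlated at 0.236 over 17172 genes. With the replicate block, 1327 genes were higher and 1992 lower, 7 histone genes were higher, 7 related genes were higher and 14 lower, and NSD2 had -0.32 (adjusted p = 0.0197, edgeR). The 7 were HIST1H2AC, HIST1H2BD, HIST1H1C, HIST1H2BC, HIST1H2BK, HIST1H4H and HIST2H2BE, and SLBP was called lower with it (adjusted p = 0.000123, edgeR). With the block and length and GC correction, 2196 genes were higher and 1933 lower, 7 histone genes were higher, and 19 related genes were higher and 18 lower. Without the group in the model, the number gave 0 histone genes in place of 4.

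The 35 untested histone genes had at most 19 fragments in a library; without a filter 39 histone genes were tested, and the 6 called were all among the 19 tested with it.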

Other observations

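The authors' deposited table gave an adjusted p to 24 of the 54 histone genes, and 0 of these were under 0.05, against 351 of 18997 genes. In the authors' deposited table HIST1H2AC had a log2 fold change of 0.74, with a standard error of 0.826, and HIST1H2BD one of 0.73, with a standard error of 0.737, for M2 over LUC per its header. The smallest adjusted p of a histone gene in the authors' deposited table was 0.758, for HIST1H2BC with a log2 fold change of 0.66. Of the 24, 18 had a log2 fold change above 0 in the authors' deposited table.

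HIST3H2A had 0 fragments in each of the 4 libraries, but the authors' deposited table gives it a base mean of 113. Which libraries entered that model is not given in the sources used here.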
